A study of Homo sapiens with 4 samples.

Results

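The squamous lineage transcription factors examined here were TP63, TP73, PITX1, TFAP2A, TFAP2C, GATA3, FOXE1, ZNF750 and BNC1, 9 genes found by symbol among the 60623 genes of the count files. They were measured by RNA-seq in BICR10 cells, which derive from a human head and neck tumour, transduced by lentivirus with a control hairpin (shControl) or with a hairpin against YEATS2 (shYEATS2) and selected with puromycin. Each condition had 2 libraries of poly(A) RNA, and the labels do not say whether these came from separate cultures. The study describes its data in general as biological replicates, without naming these libraries. The p-values therefore weigh each difference against the spread between these libraries only, estimated with information shared across genes. Which YEATS2 hairpin each library carried is not given, and a single cell line was used. The question addressed here was whether the factors of squamous identity changed when YEATS2, a reader of histone acylation, was silenced.

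In stratified squamous epithelium such as skin and oral mucosa, a small set of transcription factors keeps basal cells in the lineage and then drives them to cornify. TP63 is the master regulator of the basal layer, and ZNF750 acts downstream of it in terminal differentiation. TFAP2A and TFAP2C encode AP-2 factors that act with p63, and GATA3, FOXE1, PITX1 and BNC1 are expressed in epidermis, hair follicle or oral epithelium. TP73 is the sister gene of TP63 and recognizes similar DNA sites.

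The central genes of this programme were nearly absent from the counts. TP63 was barely counted and ZNF750 was not counted at all, while the 7 other factors were expressed. Upon YEATS2 silencing TP73 fell to 28.5% of the control level, TFAP2C and GATA3 rose by 1.82-fold and 1.93-fold, and FOXE1, BNC1 and PITX1 rose by less. TFAP2A was not called. Of the 9 factors, 7 had enough counts for a test. Among these 7, 1 was called lower and 5 were called higher (quasi-likelihood test of edgeR, adjusted p below 0.05), beside 23.6% and 22.6% of all 17058 tested genes, and 46.2% of all tested genes were called in either direction. The median log2 fold change of the 7 was 0.33, beside −0.01 over all tested genes. Calls were common in these libraries, and the shares were not tested against each other.

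The libraries held 47297970 and 39824898 counts on genes in shControl and 24072396 and 11334133 in shYEATS2, so depth and knockdown cannot be told apart by design. YEATS2 itself was at 66.1 and 66.7 CPM (counts scaled to library size by the TMM method) in shControl and at 29.3 and 29.1 CPM in shYEATS2. Markers of squamous basal cells were in part low. KRT17 stayed at or below 0.397 CPM in every library. The epithelial cadherin gene CDH1, from the simple epithelium markers below, was at 0.353 and 0.318 CPM in shControl and at 2.84 and 2.12 CPM in shYEATS2. A list of 9 fibroblast markers, with collagen and small proteoglycan genes, summed to 7302 and 7212 CPM in controls and to 2363 and 2224 CPM after silencing. Of these genes 8 were tested and 7 were called lower, beside 23.6% of all tested genes. The summed level of 8 squamous basal markers was 133 and 150 CPM in shControl and 136 CPM in both shYEATS2 libraries, most of it from PERP, a desmosomal gene. Without PERP the other 7 summed to 29.8 and 28.0 CPM in controls and to 7.82 and 7.81 CPM after silencing, with KRT5, KRT14 and DSC3 called lower and KRT15 called higher. The 7 simple epithelium markers summed to 387 and 383 CPM in shControl and to 215 and 198 CPM in shYEATS2, with KRT19 at 0 throughout. Of the 6 tested, 3 were called lower (KRT8, KRT18 and EPCAM) and 2 higher (CDH1 and KRT7), beside 23.6% and 22.6% of all tested genes. Without KRT8, which led the sum, the markers came to 119 and 120 CPM in shControl and to 91.7 and 83.2 CPM in shYEATS2. Of the 5 leukocyte markers CD3E and CD68 were at 0, as were TYR and MLANA of the 5 melanocyte and CGB3 and ERVW-1 of the 5 trophoblast markers. The leukocyte markers summed to at most 1.79 CPM. Single genes carried the melanocyte sum (11.3 to 14.1 CPM, MITF) and the trophoblast sum (13.7 to 16.6 CPM, TEAD4), and without these the sums were at most 0.711 and 0.0529 CPM. The endothelial sum went from 35.5 and 36.4 CPM to 18.6 and 19.6 CPM with KDR, which was called lower, and was at most 2.21 CPM without it. Their part in the results was not tested.

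TP63 (ENSG00000073282) occupies bases 189631389 to 189897276 of chromosome 3 in GRCh38, plus strand. Its counts were 3 and 0 with the control hairpin and 0 and 3 with YEATS2 silenced. The conditions overlapped at the limit of what could be seen, and the gene did not pass the filter on low counts (adjusted p = 0.701 in the fit without that filter). ZNF750 (ENSG00000141579), at bases 82829434 to 82840022 of chromosome 17, minus strand, had 0 counts in all 4 libraries. A count of 0 allows a level of up to 0.0661 and 0.0794 CPM in controls and up to 0.118 and 0.255 CPM after silencing, counting error only. Exons of TBCD on the other strand cover 7.03% of the exon bases of ZNF750, and the rest of its exon bases overlap no other gene. No exon of another counted gene overlaps TP63.

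Start site sequences are shown for TP63 and for TP73 and BNC1, which were expressed. Whether they bear on the level of TP63 was not tested. They are RefSeq windows on GRCh38.p14 of 250 bases before and 50 bases after a start, which were found for 7 of the factors, with 16 windows in all. TFAP2C and ZNF750 had no entry. The only TP63 window lies at the 5′ end of the gene, so any start inside TP63 is not covered. The lines give 15 bases on either side of the start, 5′ to 3′ on the strand of the gene, and capitals mark CpG dinucleotides.
TP63, chr3:189631374-189631403, plus strand: gaagtgcctaaacttctatgtctgatagca
TP73, first start, chr1:3652501-3652530, plus strand: ggggcCGggcagccCGccctgcctcccCGc
TP73, internal start, chr1:3698031-3698060, plus strand: ctCGgctcagccactaatgtgtgctggaag
BNC1, first start, chr15:83284650-83284679, minus strand: cttggggagcCGcccacttCGcCGggtCGc

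The whole TP63 window of 300 bases held 7 CpG, against a median of 14 over the 35116 windows of the table and 25 over those of tested genes. The first TP73 window held 49, while those of its other starts held 15 and 11. The BNC1 windows held 50 and 37, and PITX1 held 35 and FOXE1 32. The windows of TFAP2A held 18 each. Those of GATA3 ranged from 5 to 36 over 6 starts. The counts per gene do not say from which start a transcript came. The AP-2 motif GCCNNNGGC, which reads the same on both strands, was in 7 of the 16 windows, in 23.2% of all windows and in 30.03% of those of tested genes. It was in 2 of 3 windows of TP73, 3 of 6 of GATA3 and both of BNC1, and in none of the others. A match is a string of letters and not a bound site. The windows below show it in capitals for 2 factors that changed in opposite directions.
TP73, chr1:3652432-3652461, plus strand: aggcgctaacGCCCGCGGCcgcctactccc
BNC1, chr15:83284799-83284828, minus strand: gcgaagcagcGCCCGCGGCgtggggcgacc

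TP73 (ENSG00000078900), on the plus strand of chromosome 1 from 3652516 to 3736201, was the factor that fell. Its level was 8.82 and 8.71 CPM in controls and 2.01 and 3.39 CPM after silencing. Both silenced libraries lay well below both controls, and the silenced libraries were further apart from each other than the controls were. The means were 8.76 ± 0.0793 and 2.70 ± 0.976 CPM (SD, n = 2 each). The log2 fold change was −1.81 ± 0.18 (SE), a 95% interval from −2.17 to −1.45 and an adjusted p of 3.5e-13. This was the 219th largest of 4019 called falls. The fold change lay between −2.13 and −1.38 when each library was left out in turn. In bulk RNA, fewer cells that express a gene and less RNA per cell cannot be told apart. The adjoining gene was not called. WRAP73, whose 5′ end lies 245 bases away on the other strand, was at 14.6 and 14.1 CPM in shControl and at 13.5 and 12.3 CPM in shYEATS2, with a log2 fold change of −0.14 ± 0.11 (SE) and an adjusted p of 0.300. The antisense transcript TP73-AS1, whose exons cover 9.35% of the TP73 exon bases, was under 1 CPM in every library and was not called (log2 fold change 0.70, standard error 0.43). The difference between TP73 and these neighbours was not tested.

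Of the AP-2 pair, TFAP2C rose and TFAP2A was not called. TFAP2C (ENSG00000087510), on the plus strand of chromosome 20 from 56629306 to 56639283, had 7.47 and 7.89 CPM in shControl and 14.1 and 13.9 CPM in shYEATS2. Replicates were tight and the groups did not overlap. The log2 fold change was 0.87 ± 0.12 (SE), a 95% interval from 0.62 to 1.11 and an adjusted p of 1.2e-08. TFAP2A (ENSG00000137203), at bases 10393186 to 10419659 of chromosome 6, minus strand, had 40.4 and 42.4 CPM in shControl and 38.0 and 38.6 CPM in shYEATS2. The silenced libraries lay just below the controls, with a log2 fold change of −0.11 ± 0.08 (SE), a 95% interval from −0.27 to 0.04 and an adjusted p of 0.245, and scaling by library totals turned the value to 0.02. The antisense transcripts TFAP2A-AS1 and TFAP2A-AS2 share 16.8% of its exon bases. Both were at 1.61 CPM or less in every library and neither was called.

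Per kilobase of merged exons, TFAP2A made up 66.4% and 66.3% of the AP-2 pair in controls and 49.7% and 50.3% after silencing. The share was 66.3% ± 0.0817 against 50% ± 0.447 (SD, n = 2 each), a difference of −16.3 percentage points. An exact two-sided permutation test over the libraries gave p = 0.333, which is the smallest that 2 libraries against 2 can give. TP63 and TP73 could not be read this way, as TP63 was 0.674% and 0% of TP63 plus TP73 in shControl and 0% and 6.35% in shYEATS2, all from at most 3 counts of TP63. The share of TFAP2A does not depend on the scaling of the libraries, since both genes are read in the same library.

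**Figure D1:**
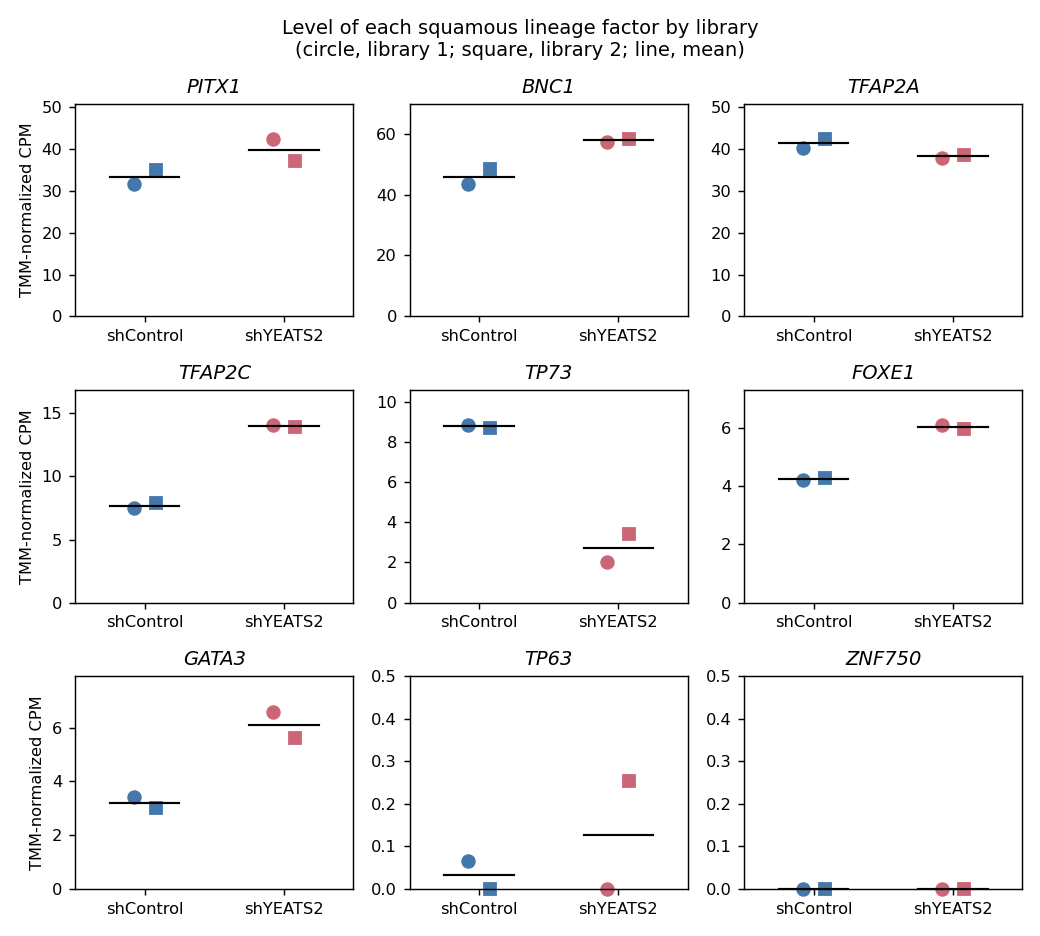
TMM-normalized CPM of each of the 9 factors (vertical axes, linear from 0, with a range of their own) in shControl and shYEATS2. Circles are library 1, squares are library 2 and lines are means of 2 libraries. TP73 dropped from 8.76 to 2.70 CPM, TFAP2C went from 7.68 to 14.0 CPM, and TP63 and ZNF750 stayed at or near 0.

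GATA3 (ENSG00000107485), on the plus strand of chromosome 10 from 8045378 to 8075198, rose by a fold close to that of TFAP2C, and which of them rose more changed with the library left out. It was at 3.42 and 2.99 CPM in shControl and at 6.59 and 5.60 CPM in shYEATS2. Both silenced libraries were higher than both controls. The log2 fold change was 0.95 ± 0.18 (SE), a 95% interval from 0.59 to 1.31 and an adjusted p of 1.0e-05, the 1096th largest of 3857 called rises. FOXE1 (ENSG00000178919), a forkhead gene of a single coding exon on chromosome 9 from 97853226 to 97856717 on the plus strand, was at 4.21 and 4.26 CPM in shControl and at 6.08 and 5.94 CPM in shYEATS2. The groups stood apart and the replicates lay close together. The log2 fold change was 0.51 ± 0.17 (SE) and an adjusted p of 0.00981. The rise of FOXE1 was small for its counts. It was not called with DESeq2 (0.51, adjusted p = 0.0878), with the libraries thinned to equal depth (0.52), without shControl replicate 1 (0.49) or without shYEATS2 replicate 1 (0.47), and its adjusted p ranged from 0.00186 to 0.0940 over the 12 alternatives.

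BNC1 and PITX1 were among the more abundant factors and rose by 1.26-fold and 1.21-fold. BNC1 (ENSG00000169594), which encodes the zinc-finger protein basonuclin of basal keratinocytes, occupies bases 83255884 to 83284664 of chromosome 15, minus strand. It was at 43.3 and 48.4 CPM in shControl and at 57.3 and 58.2 CPM in shYEATS2. The controls were spread wider than the silenced libraries, and the groups did not overlap. The log2 fold change was 0.33 ± 0.07 (SE) and an adjusted p of 1.6e-04, and without shControl replicate 1 it was 0.25 and not called. PITX1 (ENSG00000069011), a homeobox gene of oral epithelium and hindlimb, occupies bases 135027734 to 135034813 of chromosome 5, minus strand. It was at 31.6 and 35.0 CPM in shControl and at 42.4 and 37.3 CPM in shYEATS2. The nearest libraries of the conditions were close to each other. On the other strand, exons of AC008406.3 cover 8.51% of the PITX1 exon bases. That gene had at most 1 count in any library. The log2 fold change of PITX1 was 0.27 ± 0.08 (SE) and its adjusted p was 0.00459. The call was lost without shControl replicate 1 (0.19), without shYEATS2 replicate 1 (0.15) and with thinned counts (0.22), and the adjusted p ranged from 4.3e-05 to 0.216 over the alternatives.

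In TPM (counts per kilobase, scaled to one total per library), computed over merged exons to compare genes, the shControl libraries placed PITX1 at 27.5 and 30.6 and BNC1 at 26.5 and 29.7. PITX1 lay slightly above BNC1 within each shControl library, though their values overlapped between libraries. That order turned in shYEATS2 replicate 2, with BNC1 at 40.25 and PITX1 at 36.69 TPM, and was not tested. In shControl, TFAP2A followed at 14.7 and 15.5 TPM and TFAP2C at 7.46 and 7.90 TPM. TP73 at 3.90 and 3.87, FOXE1 at 3.61 and 3.67 and GATA3 at 3.02 and 2.65 TPM formed the lower end, and TP63 was at most 0.115 TPM in any library. In shYEATS2, TFAP2C at 16.6 and 15.7 TPM overlapped TFAP2A at 16.4 and 15.9 TPM. GATA3 at 6.88 and 5.59 overlapped FOXE1 at 6.17 and 5.77, and TP73 was last of the 7 expressed factors at 1.06 and 1.7 TPM. TPM is scaled within each library and not by TMM, and on this scale the mean of TFAP2A was higher in shYEATS2, as with library totals. With coding length in place of merged exons TFAP2A ranked 2 and BNC1 ranked 3 in shControl.

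**Figure D2:**
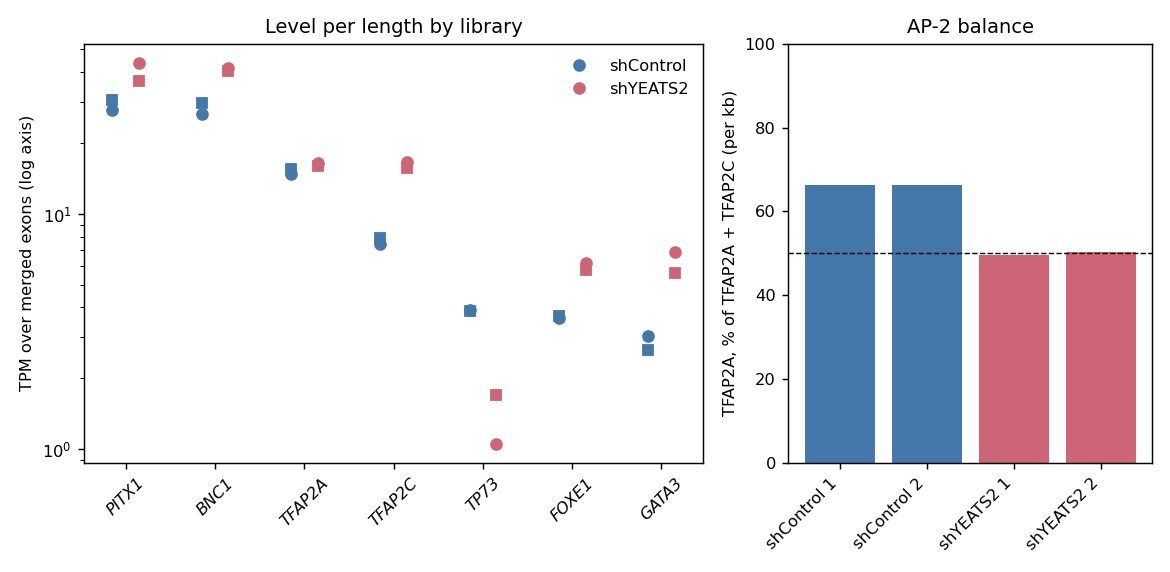
Left, TPM over merged exons (log axis) of the 7 expressed factors, with circles for library 1 and squares for library 2. Right, TFAP2A as a percent of TFAP2A plus TFAP2C per kilobase in each library (bars from 0, dashed line at 50%), which went from about 66% in shControl to about 50% in shYEATS2.

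Close relatives of the factors showed changes of their own. In the GATA family, which binds GATA sites, 3 of 6 members were tested and all 3, GATA3 included, were called higher, beside 22.6% of all tested genes. These 3 genes are too few to compare with that share, and GATA3 is itself a listed factor. Not every family moved this way. In the AP-2 family 1 of 3 tested members was called, and in the BNC family 1 of 2, both of them higher. GATA6 went from 7.17 and 7.94 CPM in shControl to 19.0 CPM in both shYEATS2 libraries, a log2 fold change of 1.33 ± 0.11 (SE). GATA2 went from 7.94 and 7.86 CPM to 12.8 and 9.33 CPM, a log2 fold change of 0.53 ± 0.13 (SE). GATA1 and GATA5 had no count, and GATA4 had 1 in all. BNC2 at 11.8 ± 0.709 and 13.8 ± 0.733 CPM (SD, n = 2 each) was not called (0.22, adjusted p = 0.118). Over the 13 paralogs listed, 6 were tested, of which 1 was lower and 2 were higher, beside 23.6% and 22.6% of all tested genes. These calls are too few to compare with those shares. The median log2 fold change was 0.13 beside −0.01 over all tested genes.

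Among 19 partner factors of squamous and epithelial lineages, 13 were tested. Of these, 3 were called lower and 7 higher, beside 23.6% and 22.6% of all tested genes, and the shares were not tested against each other. Their median log2 fold change was 0.61 beside −0.01 over all tested genes. SOX2 and MAF were among those that fell. SOX2, a factor of squamous progenitors that is often amplified with TP63, went from 11.9 and 11.0 CPM to 4.18 and 6.02 CPM, a log2 fold change of −1.24 ± 0.15 (SE). MAF, which acts in keratinocyte differentiation, went from 6.02 and 6.43 CPM to 4.62 and 3.65 CPM, a log2 fold change of −0.55 ± 0.17 (SE).

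KLF4, which acts in barrier formation, rose from 20.1 and 19.6 CPM to 60.2 and 52.7 CPM, a log2 fold change of 1.52 ± 0.08 (SE). RUNX1 rose from 26.6 and 26.8 CPM to 59.1 and 57.5 CPM (1.13, standard error 0.08). PRDM1, HOPX and KLF5 had log2 fold changes of 1.46, 0.61 and 0.39. EHF, an ETS factor of epithelial cells, was counted 3 and 1 times in shControl and 40 and 34 times in shYEATS2. From the pooled counts its level was 41.4 times as high in shYEATS2, with an exact 95% interval from 15.5 to 156 that covers counting error only. GRHL2, a keeper of epithelial identity named here after its values were seen, had 0 counts in every library.

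**Figure D3:**
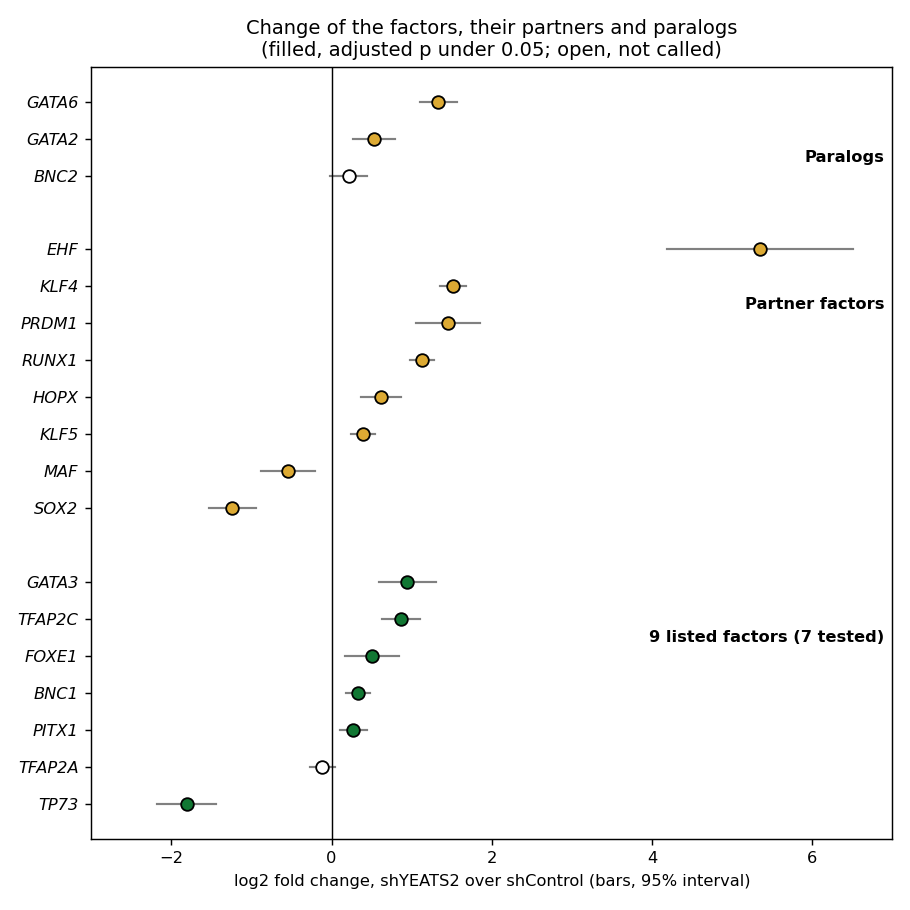
Log2 fold change of shYEATS2 over shControl (horizontal axis) with 95% intervals for the 7 tested factors and for named partner factors and paralogs averaging 1 CPM or more. Filled points passed an adjusted p of 0.05 and open points did not. TP73 and SOX2 stood on the left, and EHF with few counts on the far right.

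A list of 24 basal-layer genes known as p63 targets was read in these cells, in which TP63 was nearly uncounted. Of the 20 tested, 8 were called lower and 5 higher, beside 23.6% and 22.6% of all tested genes, and the shares were not tested against each other. Their median log2 fold change was −0.07, but 0.06 with scaling by totals, 0.03 with at least 10 counts in every library, 0.02 without shYEATS2 replicate 2 and −0.37 without shYEATS2 replicate 1. With a change of at least 2-fold, 7 were lower and 2 higher, beside 1653 of all 17058 tested genes in either direction. Log2 fold changes ran from −3.79 to 1.90, so the falls reached further than the rises. Below the 10 CPM set for naming, and given after their values were seen, DSC3, FAT2 and DSP had −2.98, −2.63 and −1.97, and KRT15 had 1.90. CDH3, the P-cadherin gene of basal cells, fell from 25.1 ± 0.260 CPM (SD, n = 2) to 3.21 ± 0.820 CPM (SD, n = 2), giving a log2 fold change of −2.89. TRIM29 and ITGA3 had log2 fold changes of −1.36 and −0.64. KRT5, the basal keratin gene, which was below the 10 CPM set for naming and is given after its values were seen, was at 16.4 and 14.9 CPM in shControl and 1.03 and 1.36 CPM in shYEATS2 (log2 fold change −3.79). ITGA6, the α6 integrin of hemidesmosomes, rose from 13.2 ± 1.01 CPM (SD, n = 2) to 37.1 ± 1.60 CPM (SD, n = 2), giving a log2 fold change of 1.49. JAG1, LAMA3 and PERP had log2 fold changes of 0.71, 0.33 and 0.19.

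Terminal differentiation genes were largely absent. Of 33 listed genes, 9 had no count in any library and only 9 were tested. Of these, 2 were called lower and 3 higher, beside 23.6% and 22.6% of all tested genes. So few calls set the list apart from all genes in neither direction. The median log2 fold change was −0.22, which was 0.05 without shYEATS2 replicate 1. PPL, which encodes periplakin of the cornified envelope, went from 33.0 ± 0.0742 CPM (SD, n = 2) to 17.99 ± 0.963 CPM (SD, n = 2), giving a log2 fold change of −0.86. KRT10 had −0.25. CSTA, which encodes cystatin A, went from 38.3 ± 2.89 CPM (SD, n = 2) to 56.5 ± 6.49 CPM (SD, n = 2), giving a log2 fold change of 0.54. IVL, the involucrin gene, was not called, with a log2 fold change of −0.22.

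**Figure D4:**
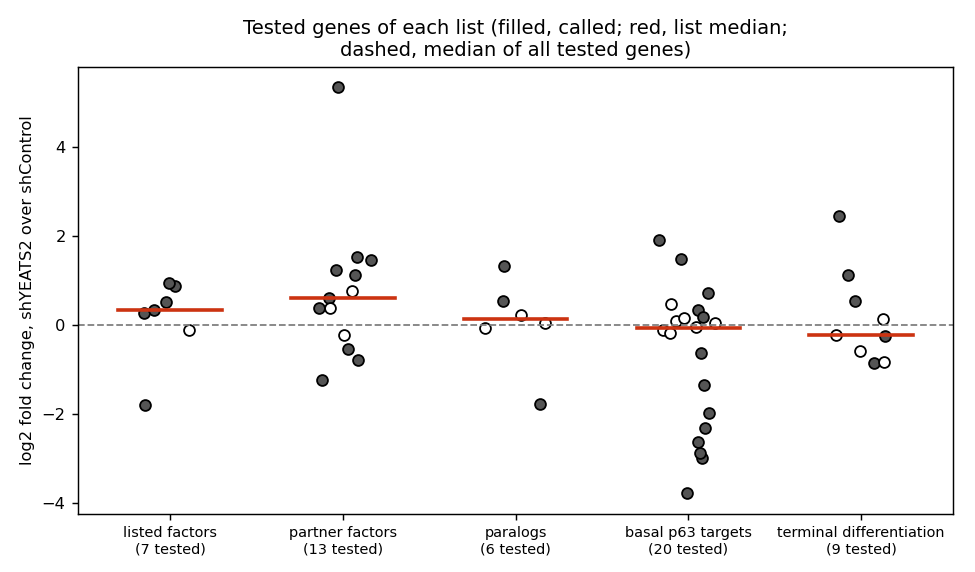
Log2 fold change of shYEATS2 over shControl for the tested genes of 5 lists, the 7 tested factors among them. Filled points were called, open points were not, red bars are list medians and the dashed line is the median of all tested genes at −0.01. Basal p63 targets spread from −3.79 to 1.90.

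Genes around the factors were read to see whether a change covered the locus. Within 100 kb of the 5′ ends, or overlapping a factor, lay 51 other genes of the count files, of which 10 were tested, 2 called lower and 2 higher, near the shares over all tested genes (23.6% and 22.6%), with log2 fold changes between −0.31 and 0.70. Both higher calls, MEGF6 and TRMO, were lost with DESeq2, without the filter, with thinned counts and without shControl replicate 1, shControl replicate 2 or shYEATS2 replicate 1, and 1 was lost without shYEATS2 replicate 2. Of the lower calls, 1 was lost with library totals and without either shControl replicate. HDGFL3 near BNC1 was at 74.3 CPM on the mean of shControl and had −0.31 while BNC1 rose, TBCD over ZNF750 had −0.20, MEGF6 near TP73 had 0.22 and TRMO near FOXE1 had 0.33. TPRG1L near TP73 (0.02) was not called. Nor was C5orf66 (−0.16), the lncRNA that overlaps PITX1 on the other strand and starts 1533 bases from its 5′ end. No tested neighbour lay near TP63, TFAP2C or GATA3.

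By Euclidean distance of centred log2 CPM over the 4 libraries, among the 9365 genes averaging 10 CPM or more, the patterns most like that of TP73 were PIK3R1, GOLGA8B and ADAMTS5, at distances of 0.34, 0.36 and 0.38 with log2 fold changes of −1.60, −1.45 and −1.61. Those most like GATA3 were LYPD3, TXNL4B and STX1A, at 0.08, 0.10 and 0.11 with log2 fold changes of 0.99, 0.97 and 0.95. With 4 libraries in 2 conditions this distance mostly follows the fold change.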

How the data were processed

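The authors aligned paired reads from a stranded mRNA kit to GRCh38 with STAR, counted read pairs per gene with HTSeq, and deposited raw counts without normalization, 1 table per library. The STAR version, annotation release and strand setting are not given in the sources used here, so antisense overlaps are stated beside the genes. HTSeq's tallies of unassigned reads were left out of all totals, and reads outside genes made up 7.64% to 8.57%.

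Genes kept by filterByExpr (17058 of 60623) were scaled by TMM and tested by the robust quasi-likelihood functions glmQLFit and glmQLFTest of edgeR 4.0.16 (R 4.3.3), with Benjamini-Hochberg adjustment over all of them and a threshold of 0.05. DESeq2 1.42.0 and limma-voom (limma 3.58.1) were alternatives, and all were tested on simulated data with 200 changed genes. As 7876 genes were called here, that simulation cannot show how the methods behave when so many genes change. Library totals alone shifted the median log2 fold change of all genes by 0.13. Standard errors are the log2 fold change over the root of the F value. The log2 CPM for distances had a prior count of 2. Positions and lengths came from GENCODE release 44, matched by Ensembl identifier for 60295 genes. Lists written by hand covered partner factors, paralogs, basal p63 targets, terminal differentiation and cell type markers. The factors and lists were chosen with earlier results of these data known. Named were all factors, tested partners and paralogs at 1 CPM or more (some are not reported here), tested neighbours, and the largest called changes at 10 CPM or more in the other lists. No library was a repeat of another, as chi-square over its degrees of freedom was 5.95 for the shControl pair and 5.39 for the shYEATS2 pair.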

Additional observations from a re-analysis of the deposited data

How the results depend on the processing

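TP73, TFAP2C and GATA3 kept their direction and their call under all 12 alternatives that gave a value for them, with fold changes from −2.13 to −1.38, at least 0.82, and 0.79 to 1.08 on the log2 scale. TFAP2A was called under none of the 12 and turned to 0.021 with library totals alone. The 5 factors called higher became 3 with counts thinned to the smallest total and 0 when a 2-fold change was required, and between 2 and 5 when each library was left out. A 2-fold change also left 1 partner factor lower, 1 paralog higher, 2 basal p63 targets higher, 0 terminal differentiation genes lower, and 0 neighbours lower and 0 higher. With at least 10 counts in every library 0 paralogs were lower and 5 partner factors were higher. Partner factors called higher numbered 6 without a filter, with DESeq2 and with thinned counts. With library totals alone 1 terminal differentiation gene and 1 neighbour were lower. With thinned counts 1 terminal differentiation gene was higher. Neighbours called higher numbered 0 without a filter, with DESeq2 and with thinned counts. Over the fits that left out 1 library, paralogs called higher ranged from 1 to 3, basal p63 targets called higher from 3 to 6, terminal differentiation genes called lower from 1 to 3, neighbours called lower from 1 to 2 and neighbours called higher from 0 to 1. These fits assume that a lone library varies like the others. With coding length the difference in the share of TFAP2A was −10.9 percentage points, and TFAP2A ranked 2 and BNC1 ranked 3. The cause of these moves was not tested where none is given.

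The labels do not say whether libraries with the same replicate number were made together. The gap between replicates 1 and 2 in shControl correlated at −0.0184 with that in shYEATS2 over genes. This shows no large shared gap, but cannot show whether the libraries were paired. A replicate block kept 1 factor lower and 5 higher, and moved the falls over all genes from 4019 to 4142 and the rises from 3857 to 3870. Scaling by library totals gave 2567 falls and 5441 rises, and DESeq2 2949 and 2820. The smallest library of 11334133 counts limits what can be said of factors under about 1 CPM.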

Other observations

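A few genes of the lists were called at a mean below 1 CPM and are given as values, chosen after these were seen. GRHL1, a grainyhead factor of epithelium, was counted 16 and 13 times in shControl and 22 and 9 times in shYEATS2 (log2 fold change 1.24, SE 0.49). As the shYEATS2 libraries were smaller, this is 0.353 and 0.344 CPM against 0.868 and 0.764 CPM, with an adjusted p of 0.0308 by the edgeR test. LCE3D of the late cornified envelope was counted 7 and 5 times against 21 and 9 times (log2 fold change 2.45, SE 0.58). EVPL, which encodes envoplakin, was counted 25 and 12 times against 26 and 10 times (log2 fold change 1.11, SE 0.45). In CPM this is 0.551 and 0.318 against 1.03 and 0.849, with an adjusted p of 0.0377 by the edgeR test. KRT14, the basal partner keratin of KRT5, was counted 56 and 45 times in shControl and 7 and 2 times in shYEATS2 (log2 fold change −2.31, SE 0.50). GRHL2, OVOL1, OVOL2, ELF3 and GRHL3 did not pass 7 counts in any library.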
